A study of Drosophila melanogaster with 12 samples.

Results

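The 150 antisense RNA features described here are those whose FlyBase symbol begins with asRNA: and that held the most raw counts, summed over 6 ovary libraries of Drosophila melanogaster. They were taken from 465 antisense features among 17558 counted features. The members were chosen by their summed ovary counts, so ovary levels beside testis levels are given as a description with no test. No testis counts entered the choice. It used mutant and control ovaries summed, so a feature could reach the list through 1 genotype, and counts of members that differ between mutant and control ovaries are not independent of it.

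The libraries hold RNA of gonads from Tdrd5l mutant flies and from control flies labelled cas9 iso, 3 biological replicates of each genotype in each tissue. Flies were kept at 25 °C, and males gave testes at an age of 1 to 2 days while females gave ovaries at 0 to 1 day. Testis RNA is labelled as depleted of ribosomal RNA and ovary RNA as poly(A) selected, so tissue, sex, age and RNA selection cannot be told apart. Tdrd5l encodes a Tudor domain protein of the germline, and the labels do not describe the mutant lesion or the promoter and cells in which the cas9 of the control acts. The series asked what the loss of Tdrd5l does to RNA levels in testes and in ovaries.

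An antisense RNA is transcribed from the DNA strand opposite another gene, so that part of its sequence is complementary to that gene's RNA. In flies such RNAs can start from a nearby promoter, run on past a neighbouring gene's end, or lie wholly within a protein gene, and some feed small RNA pathways of the germline. A read from the shared stretch can be given to the right gene only if the library keeps the strand and the counting uses it. The labels name the preparation kit only. Whether the libraries keep the strand, and how the counting treated it, is not stated in what was used here. Every value below is of counts assigned to a feature. The strand of the RNA behind them was not tested, nor whether counts on an antisense feature come from RNA of the protein gene opposite.

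Gene counts ran from 772292 to 1647933 per ovary library and from 1390699 to 2880119 per testis library. They made up 1.95% to 3.29% of the uniquely aligned records in ovary and 3.33% to 5.02% in testis, the other records being listed as without a feature or as ambiguous. Mutant ovary 2 stood apart from the other ovary libraries. There, genes with no exon opposite another gene held 30.2% of gene counts, where the remaining 5 ovary libraries ran from 5.74% to 14.3%. Tdrd5l itself had 938, 739 and 679 counts in mutant testes and 542, 549 and 684 in control testes (log2 0.01, adjusted p = 0.998, edgeR). In ovaries it had 12, 8 and 11 counts in mutant and 9, 4 and 6 in control libraries, under the filter on low counts. Whether the counted exons lie in the lesion is not stated in what was used here, so these counts do not check the labels. Of 18 testis germline markers, 10 were at 0 in all ovary libraries, and the list summed to 69.0 to 133 counts per 1000000 gene counts (CPM) in ovary and 2832 to 6842 in testis. The 6 ovary germline markers found summed to 246 to 1204 CPM in ovary and 219 to 398 CPM in testis, ranges that overlap. Muscle sheath markers summed to 339 to 3867 CPM in ovary and 232 to 332 CPM in testis, and their part in the results was not tested.

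The boundary of the list fell among features of nearly equal level. The last 3 on the list were asRNA:CR42860 with 3186 ovary counts, asRNA:CR43916 with 3148 and asRNA:CR44119 with 3035. The next 3 below it were asRNA:CR46020 with 3030, asRNA:CR44891 with 2868 and asRNA:CR43787 with 2837. Ranked by control ovary counts alone, 6 members fall outside the first 150, the antisense features of Cap-H2, Had1, CG8534, Arms, CG10863 and SLC5A11. Ranked by mutant ovary counts alone, 3 fall outside, those of CG31460, CG7110 and sls. Ranking by CPM gave the same 150 features, and ranking by counts per kilobase of exon gave 126 of them, 84% of each list. The 150 antisense features with the most testis counts shared 88 with the list, 58.7% of each.

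Every one of the 150 features had exon bases opposite an exon of a protein gene, by the Ensembl annotation of the BDGP6 assembly, the build named in the submitters' processing notes. This annotation holds 503 antisense features, against 465 in the counts. Whether the submitters counted with the same release is not stated in what was used here, so exons as counted may differ. In 83 pairs the antisense feature lay inside the protein gene, in 43 the pair was head to head, in 17 tail to tail, and in 7 the protein gene lay inside the antisense feature. The median antisense feature had 972 exon bases (223 to 5913), and 77 were a single exon block. A median of 78.4% of its exon bases lay opposite the protein gene, against 56.9% for the 315 antisense features outside the list. Of the shared bases a median of 88.8% was coding sequence of the protein gene. The list had 40 members on chromosome arm 3R, 36 on 3L, 31 on 2L, 25 on 2R, 15 on X and 3 on chromosome 4. RhoGEF2 lay opposite 2 of the members, 13 members were opposite more than 1 protein gene, and 6 also shared exon bases with a gene on their own strand. Of the opposite protein genes 141 had counts, which gave 142 pairs. The protein genes opposite the other 8 members, among them Rab1, Pdi and Had1, were not analysed here.

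**Figure D1:**
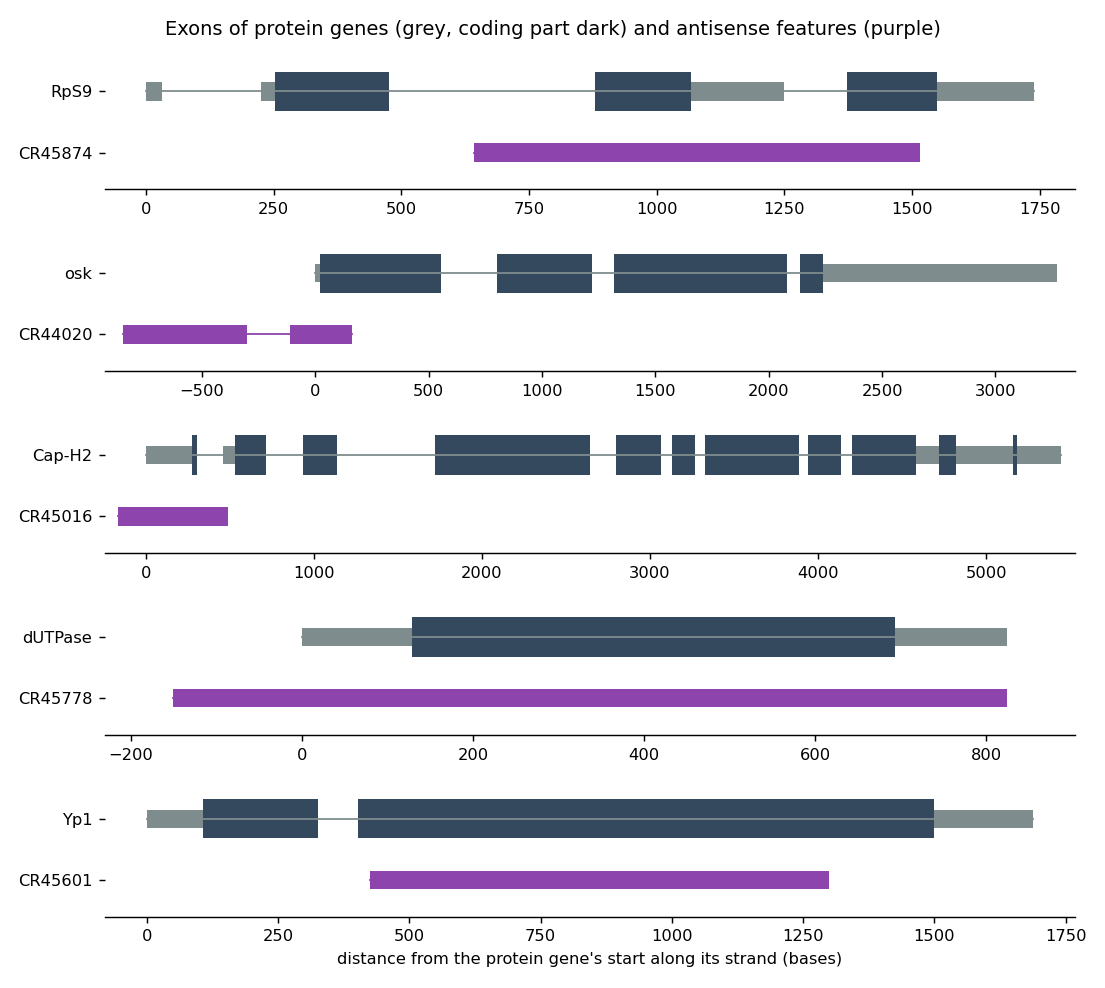
Exon maps of 5 antisense features (purple) and the protein gene on the other strand (grey, coding part dark), drawn to scale by distance in bases from the start of the protein gene in its direction of transcription. CR45874 lies inside RpS9 and CR45601 inside Yp1, CR44020 and CR45016 overlap the first exons of osk and Cap-H2 head to head, and CR45778 spans all of dUTPase.

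A large part of all ovary gene counts fell on these 150 features, and within them on a few. The members held 49.5%, 28.8% and 49.1% of gene counts in mutant ovaries 1, 2 and 3 and 39.8%, 43.4% and 46.1% in control ovaries 1, 2 and 3. In testes they held 5.12% to 7.88%. In such bulk samples fewer cells of a type and less RNA per cell cannot be told apart. Of all antisense counts, the members held 90.6% to 92.6% in ovary and 36.4% to 41.0% in testis. The 3 members of highest count carried 35.0% to 37.9% of the members' counts in ovary, and the first 20 carried 58.8% to 62.0%.

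The low share in mutant ovary 2 went with more counts on other features, not with fewer on the members. Per 1000000 uniquely aligned records, the members held 9734, 9501 and 9590 counts in mutant ovaries and 9168, 8999 and 9461 in control ovaries. The other features held 9923, 23447 and 9957 in mutant and 13886, 11740 and 11041 in control ovaries. On this scale, chosen after seeing the data, the mutant ovary libraries were all above the control ovary libraries for the members in sum, 9608 ± 118 against 9209 ± 234 (SD, n = 3 each). The exact two-sided permutation test gave p = 0.1, the smallest that 3 against 3 allows. That test is not independent of the choice of members, which summed raw counts of both genotypes. Every mutant ovary library also had more uniquely aligned records than any control ovary library, so the choice could lean to mutant counts. Most single members did not share the higher sum. By edgeR fold change scaled by aligned records, 66 members were higher and 84 lower in mutant ovaries. The median member level per 1000000 aligned records was 25.1 in mutant and 27.0 in control ovaries. As a share of gene counts the ovary groups overlapped (exact permutation p = 1). In testes the members held 2570 ± 155 counts per 1000000 aligned records in mutant and 2557 ± 82.5 in control libraries (SD, n = 3 each, exact permutation p = 0.9).

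**Figure D2:**
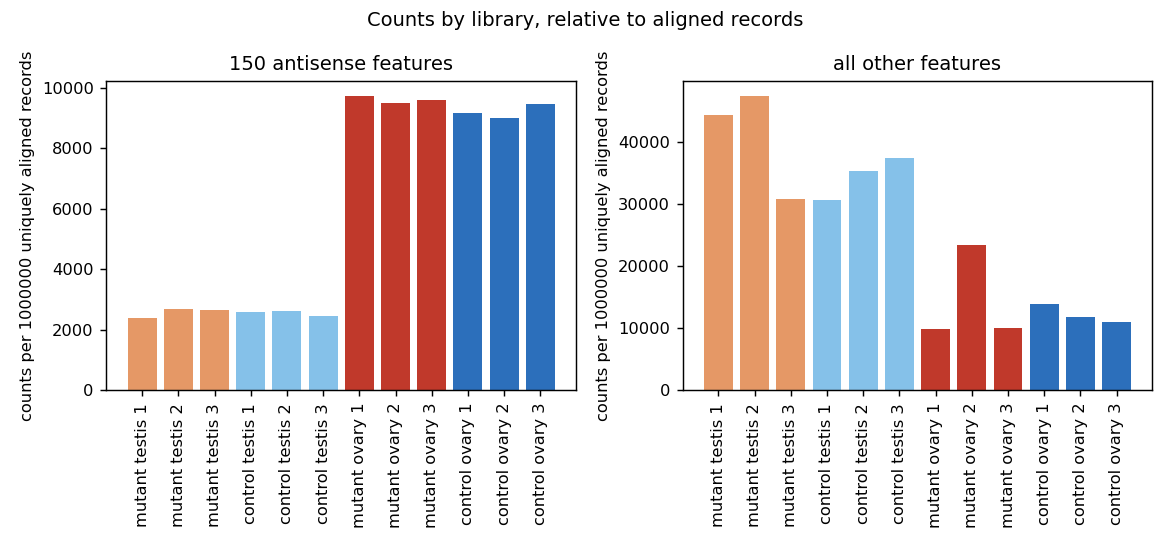
Counts on the 150 antisense features (left) and on all other features (right) in each of the 12 libraries, per 1000000 uniquely aligned records; each bar is 1 library. The members sit between 8999 and 9734 in every ovary library, while the other features reach 23447 in mutant ovary 2.

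The 3 leading members lie inside genes of histone handling and of the ribosome. The first was asRNA:CR45926 (2R:23905334-23906700, plus strand), opposite Nap1, a histone chaperone. It had 72694, 69206 and 63538 counts in mutant ovaries and 52343, 48518 and 55413 in control ovaries. In testes it had 6841, 6930 and 5808 counts in mutant and 4947, 4919 and 5848 in control libraries. The ovary libraries were all above the testis libraries, and the control ovary level was 20.2 times the control testis level in CPM.

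The second, asRNA:CR45874 (3L:9510017-9510889, plus strand, 1 exon block), shares 512 bases with RpS9, a protein of the small ribosomal subunit. Its counts were 58120, 64122 and 57543 in mutant ovaries and 54388, 53185 and 51853 in control ovaries. RpS9 itself was assigned 40, 1221 and 26 counts in mutant and 200, 36 and 40 in control ovaries. The antisense feature therefore held 98.1% of the pair's counts in mutant ovary 2 (95% Wilson interval 98.0% to 98.2%) and at least 99.6% in the other 5 ovary libraries. These intervals cover counting error only.

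The third, asRNA:CR31144 (3R:11222414-11223029, minus strand), lies inside RpL3, a protein of the large ribosomal subunit. It had 39991, 42550 and 44072 counts in mutant and 28370, 26079 and 27172 in control ovaries, groups that did not overlap in raw counts or per aligned record but overlapped in TMM-scaled CPM (log2 0.48, edgeR adjusted p = 1.00). In testes it had 1178, 1485 and 1388 counts in mutant and 1349, 1526 and 1643 in control libraries. Of the counts of this pair 99.2% were on the antisense feature in control ovaries and 54.6% in control testes.

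Only 3 of 83 annotated cytoplasmic ribosomal protein genes lay opposite any antisense feature, and all 3 of these antisense features are members. The third of them, asRNA:CR45305, overlaps RpL37A head to head and had 3746 to 4008 counts in every ovary library. Together these 3 held 23.0% of the members' ovary counts and 4.22% of their testis counts. Of the ribosomal protein genes, 75 were tested in ovary and 78 in testis, and none passed the edgeR test between the genotypes in either tissue. Of all tested features 0% were called in ovary, and 0.317% higher and 0.624% lower in testis. The absence of calls is therefore not particular to these genes.

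Other members of the first 20 lay opposite genes of varied roles. Opposite AspRS, the aspartyl-tRNA synthetase, asRNA:CR45141 had 8391 to 10200 counts per ovary library and 1174 to 1718 per testis library. Opposite SpdS, the spermidine synthase, asRNA:CR45053 had 5073 to 7872 counts per ovary library and 191 to 381 per testis library. Opposite Mcm7, a subunit of the replicative helicase, asRNA:CR45871 had 5637 to 6562 counts per ovary library and 107 to 174 per testis library. In each of these 3 the ovary and testis libraries were far apart.

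Opposite Sec63, which acts in moving proteins into the endoplasmic reticulum, asRNA:CR45835 had 4169 to 5551 counts per ovary library and 3205 to 4022 per testis library. Opposite Prps, the phosphoribosyl pyrophosphate synthetase, asRNA:CR45804 had 3870 to 5663 ovary and 261 to 364 testis counts per library. Opposite woc, a zinc finger protein of chromatin, asRNA:CR44049 had 3931 to 5542 ovary and 70 to 207 testis counts per library. In CPM, the control ovary level was 2.46 times the control testis level for the antisense feature of Sec63, 29.7 times for that of Prps and 58.6 times for that of woc. Opposite CG3164, asRNA:CR44969 had 31414 ovary counts in sum. Opposite Rab1, a GTPase of traffic from the endoplasmic reticulum to the Golgi, asRNA:CR45798 had 25395. Opposite genes known only by CG numbers, asRNA:CR43964 (CG15093) and asRNA:CR44704 (CG10527) had 30584 and 24018 ovary counts in sum.

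Over all 150, the members ran from 124 to 62144 CPM in control ovaries and from 0 to 7805 CPM in control testes. Across the 150 members, control ovary and control testis CPM had a Spearman correlation of 0.30, a description over features that share libraries and whose counts also follow their length. The ratio of control ovary to control testis CPM had a median of 6.39, and 141 members had the higher level in ovary, 54 of them by more than 10 times. Those ratios rest on the choice of members by ovary level and on RNA that was selected differently.

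The members with the highest ratios included antisense features of 3 genes that act in the egg or the germline cyst, osk, hts and Yp1. In control libraries asRNA:CR44020, opposite osk, the organiser of germ plasm, was 930 times higher in ovary in CPM. Opposite hts, an adducin of the fusome and ring canals, asRNA:CR43430 was 137 times higher. Opposite Noc2, a factor of ribosome assembly, asRNA:CR44910 was 108 times higher. Opposite Yp1, a yolk protein, asRNA:CR45601 had 0 counts in each control testis library, where a count of 0 allows up to 3 counts, and 2588, 67 and 1673 counts in control ovaries.

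In the other direction 9 members were higher in testis in CPM. The 4 with the lowest ratios of ovary to testis were asRNA:CR44119 opposite SLC5A11, asRNA:CR45999 opposite CG9855, asRNA:CR43903 opposite CG10254 and asRNA:CR45151 opposite Fbxo42, with ratios of 0.352, 0.384, 0.590 and 0.627. The member with the highest testis level was asRNA:CR45604, a single block of 5913 bases that spans CG2061, with 4142 to 5737 counts per ovary library and 12200 to 17901 per testis library.

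**Figure D3:**
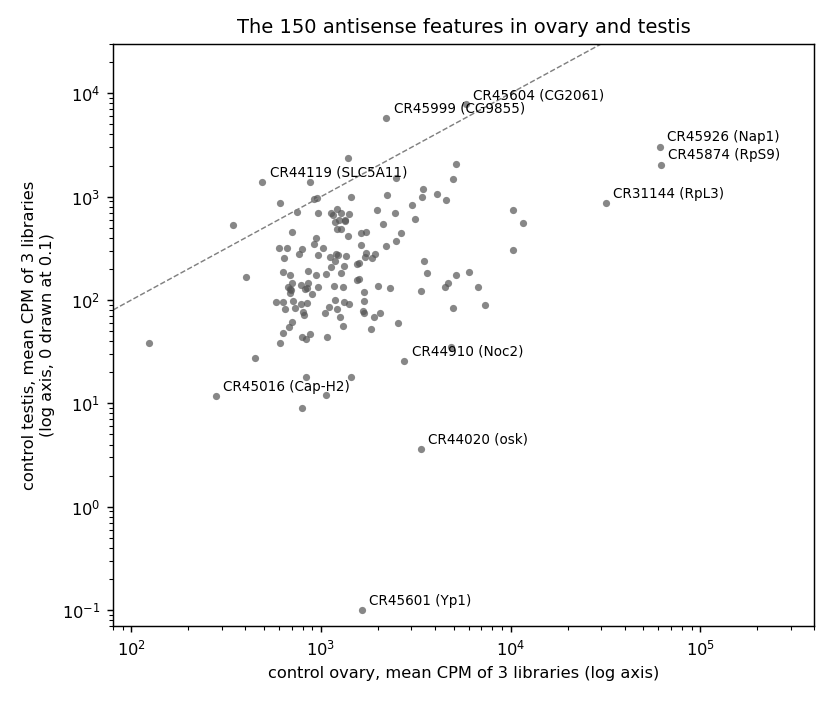
Mean CPM of each of the 150 antisense features in 3 control ovary libraries (horizontal, log axis) and 3 control testis libraries (vertical, log axis, 0 drawn at 0.1); the dashed line marks equal levels. Most points lie below the line, with CR44020 (osk) and CR45601 (Yp1) lowest and CR45999 and CR44119 above it.

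In ovary the counts of a pair lay almost wholly on the antisense feature. It had more counts than the protein gene in 142 of 142 pairs in both ovary groups, with a median share of 98.2% in control and 97.1% in mutant ovaries and a lowest share of 59.1%. The members were chosen for high ovary counts, and how far these shares follow from that choice was not tested. Whether they follow from how strand was counted was not tested either. In testis, whose counts did not enter the choice, the antisense feature had more counts in 105 of 141 pairs in control testes (74.5%). In mutant testes it had more in 97 of 141 pairs (68.8%). The median shares were 73.9% in control and 74.6% in mutant testes. The median share in control testes was 92.5% in the 17 tail to tail pairs and 91.2% in the 7 pairs where the antisense feature contains the protein gene, against 70.6% in the 80 counted pairs where it lies inside and 70.1% in the 38 head to head pairs.

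The same protein gene could hold few counts in ovary and most of the pair's counts in testis. In the hts pair the antisense feature held 99.1% of counts in control ovaries and 6.24% in control testes. There hts had 804, 955 and 1156 counts and its antisense feature 41, 57 and 96. In the SpdS pair the antisense share was 97.6% in control ovaries and 20.5% in control testes, and in the Mcm7 pair 99.9% and 36.4%. In the pair of CG9855 the share was 98.5% in control ovaries and 98.8% in control testes.

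The lowest antisense shares in control ovaries among pairs with at least 100 counts belonged to asRNA:CR45016 with Cap-H2, a condensin II subunit, at 59.1%, asRNA:CR45908 with CG1943 at 64.6%, asRNA:CR44029 with unc-13, which acts in synaptic vesicle release, at 69.7% and asRNA:CR44119 with SLC5A11 at 70.1%. These 4 also kept a majority on the antisense feature. In sum over the pairs the antisense share was 98.3%, 94.2% and 98.3% in mutant ovaries and 97.3%, 98.1% and 98.2% in control ovaries (exact permutation p = 1, n = 3 each), mutant ovary 2 being the lowest. In testes it was 71.8% ± 1.81 in mutant and 73.9% ± 0.931 in control libraries (SD, n = 3 each, exact permutation p = 0.2).

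The counts of the opposite protein genes were low and moved with mutant ovary 2. Per 1000000 aligned records they summed to 157, 540 and 154 in mutant ovaries and 231, 164 and 164 in control ovaries. In testes they summed to 867 to 996 in mutant and 815 to 846 in control libraries, groups that did not overlap (exact permutation p = 0.1, n = 3 each).

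**Figure D4:**
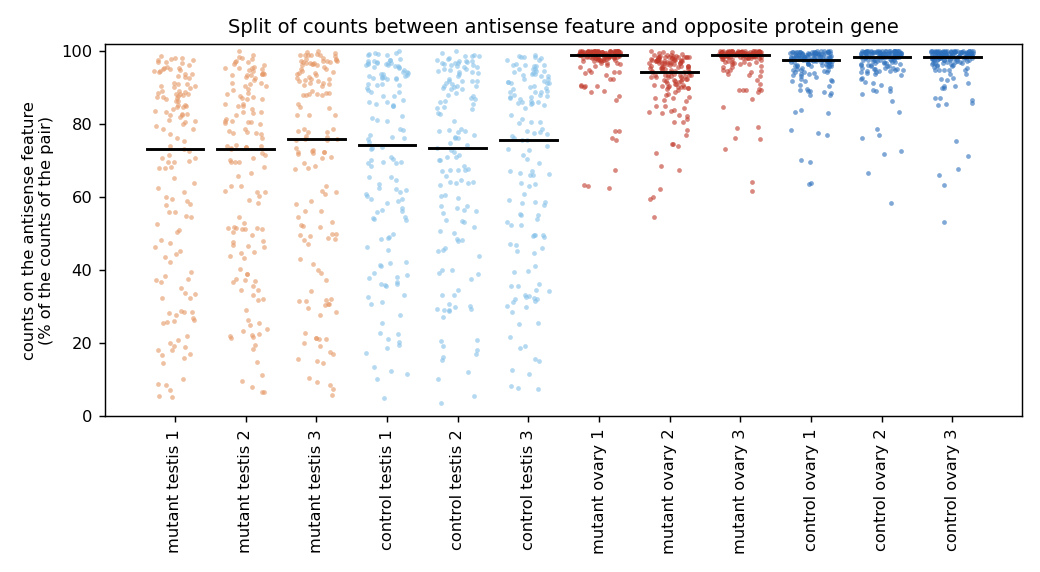
Share of a pair's counts that lay on the antisense feature (vertical, %) for each counted pair (points) in each of the 12 libraries, with the median as a black bar. Medians run from 94.3% to 99.0% in ovary libraries and from 73.2% to 76.0% in testis libraries.

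Between mutant and control ovaries none of the 150 members passed the edgeR test after Benjamini-Hochberg adjustment, among 4683 features of which 0% were called in either direction. At an unadjusted p under 0.05, 4 members were higher and 2 lower in mutant, against 1.84% and 2.09% of all tested features. DESeq2 called 1 member higher and none lower, against 0.128% and 0.171% of features, and limma-voom called none. The members' median log2 fold change was 0.05, beside 0.14 over all tested features. It was -0.06 over the members when libraries were scaled by aligned records and -0.13 with no scaling beyond library size, so the direction of the median depends on the scaling.

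The smallest p belonged to asRNA:CR45016 (3R:10761148-10761797, minus strand), a member only through its mutant counts, 4656 in sum against 731 in control, which overlaps the start of Cap-H2 head to head by 333 bases. It had 1499, 1370 and 1787 counts in mutant and 321, 217 and 193 in control ovaries. Every mutant library was above every control library, and in testes it had 66, 34 and 36 against 27, 8 and 25 counts. In ovary the log2 fold change was 2.60 ± 0.44 (SE, n = 3 each), with an edgeR adjusted p of 0.420. DESeq2 gave 2.64 with an adjusted p of 1.59e-04, and edgeR without the filter on low counts an adjusted p of 0.0118. Without mutant ovary 2 the edgeR value was 2.95 with an adjusted p of 9.29e-06. Cap-H2 had 416, 630 and 325 counts in mutant and 181, 154 and 170 in control ovaries, also with no overlap in raw counts (log2 1.17, edgeR adjusted p = 0.726, and 1.31 with adjusted p = 0.0174 without mutant ovary 2). The antisense share of this pair was 77.3% in mutant and 59.1% in control ovaries.

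The next by p were asRNA:CR45485 and asRNA:CR43916, which are also on the list only through their mutant counts. The first, opposite Had1, had 812, 1368 and 1473 counts in mutant and 397, 290 and 345 in control ovaries, and it also shares 346 bases with a gene on its own strand. Its log2 fold change was 1.64 ± 0.38 (SE, n = 3 each) with an edgeR adjusted p of 0.722, and 1.90 with an adjusted p of 0.00415 without mutant ovary 2. The second, opposite CG10863, had 931, 735 and 585 counts in mutant and 407, 255 and 235 in control ovaries. Its log2 fold change was 1.23 ± 0.42 with an edgeR adjusted p of 1.00, and 1.56 with an adjusted p of 0.00728 without mutant ovary 2. In both, every mutant ovary library was above every control library.

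Mutant ovary 2 also decided the calls of 3 more members. Without it edgeR called 6 members higher and none lower, against 0.684% and 0.456% of 4826 features, and the members' median log2 fold change was 0.35. Of these 6, the antisense features of Cap-H2, Had1, CG10863 and Arms reached the list only through their mutant counts, so nothing is read from the count. Beside the 3 above these were the antisense features of osk, GluProRS and Arms, with log2 fold changes of 1.28, 0.93 and 0.95 and adjusted p of 0.0430, 0.0406 and 0.0393. GluProRS joins glutamate and proline to their transfer RNAs. The same fit called 3 opposite protein genes higher, Cap-H2, Taf3, a subunit of the general transcription factor TFIID, and Vps11, which acts in vesicle tethering, while the fit with all 6 libraries called none of 102 tested.

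The osk antisense feature asRNA:CR44020 (3R:8934279-8935287, minus strand, 2 exon blocks) overlaps osk head to head by 162 bases, 19.8% of its exon bases. It had 6733, 6073 and 5848 counts in mutant and 2435, 2768 and 3307 in control ovaries, and 3 to 26 counts per testis library. Per 1000000 aligned records this was 131 ± 13.0 in mutant and 71.3 ± 15.2 in control ovaries (SD, n = 3 each), with no overlap of the groups, whereas in TMM-scaled CPM the groups overlapped. The log2 fold change was 0.97 ± 0.43 with an edgeR adjusted p of 1.00, which became 0.0430 without mutant ovary 2. osk itself had 58, 1061 and 26 counts in mutant and 105, 33 and 34 in control ovaries, the highest value being that of mutant ovary 2.

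The yolk protein member asRNA:CR45601 (X:10054235-10055109, minus strand), whose exon lies wholly opposite Yp1, was the most uneven of the leading members. It had 5385, 19273 and 2761 counts in mutant ovaries and 2588, 67 and 1673 in control ovaries. Control ovary 2 and mutant ovary 2 lay far from the other libraries of their genotype, the first below and the second above, and the log2 fold change of 2.17 ± 1.07 (SE, n = 3 each) had an edgeR adjusted p of 1.00. Yp1 had 14, 514 and 6 counts in mutant and 28, 8 and 9 in control ovaries. The somatic markers of the ovary, which include Yp1, summed to 40.7 to 1039 CPM in mutant and 35.7 to 91.8 CPM in control ovaries.

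Counted without a model, the ovary groups of 4 members were higher in mutant with no overlap in TMM-scaled CPM, against 4.31% of all tested features, and 4 were lower, against 5.66%. The higher ones were the antisense features of Yp1, Cap-H2, Had1 and CG10863. The groups of the Yp1 feature overlapped per aligned record, and the other 3 are on the list only through their mutant counts. The lower ones were those of Cys, a cystatin-like protease inhibitor, CG6006, Karl, a lipocalin, and sls, the giant titin-related protein of muscle. Opposite Cys, asRNA:CR44095 had 834, 817 and 1065 counts in mutant and 2392, 1544 and 1253 in control ovaries (log2 -1.01 ± 0.42, SE, edgeR adjusted p = 1.00). Per 1000000 aligned records 20 members (13.3%) were higher and 31 (20.7%) lower with no overlap, against 5.02% and 7.9% of all tested features. Of those members, 6 and 5 differed by at least 1.5 times. The tested antisense features outside the list stood at 14.7% higher and 17.4% lower, so these shares are not particular to the members.

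**Figure D5:**
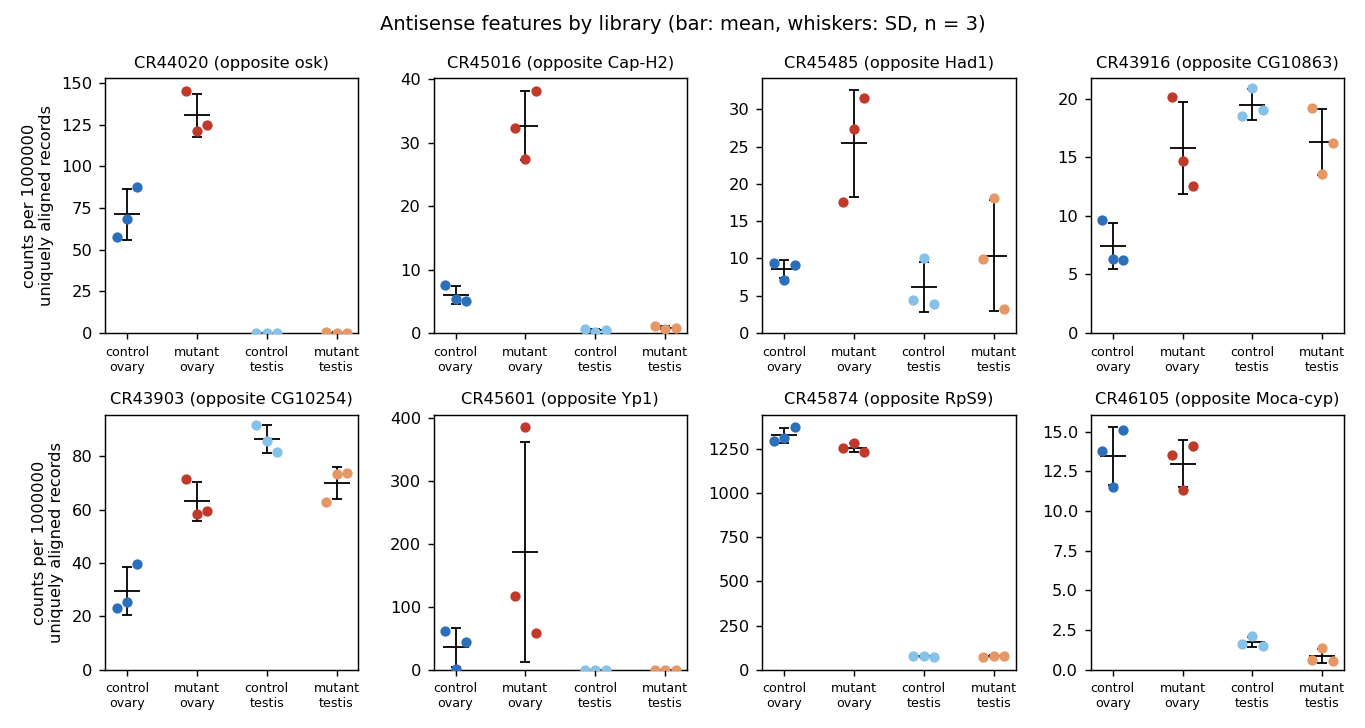
Counts per 1000000 uniquely aligned records of 8 antisense features in each library (points), by group, with the mean (bar) and SD (whiskers, n = 3); each panel has its own axis from 0. CR45016 lies far higher in the 3 mutant ovaries than in the 3 control ovaries, CR44020 is separate with a smaller gap, and CR45601 is spread widely within mutant ovaries.

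In testes all but 2 of the 150 members were tested and none was called by edgeR, DESeq2 or limma-voom. Of 9768 features edgeR called 0.317% higher and 0.624% lower, and DESeq2 0.338% and 0.706%. At an unadjusted edgeR p under 0.05 none of the members was higher and 6 were lower, against 3.17% and 4.12% of all tested features. The members' median log2 fold change was -0.18, beside 0.03 over all tested features, and 119 of the tested members were lower in mutant. Scaled by aligned records the median was -0.02 and 76 were lower, so that the split between higher and lower depends on the scaling.

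The smallest testis p belonged to asRNA:CR46105, inside Moca-cyp, a cyclophilin-type protein. It had 39, 74 and 27 counts in mutant and 67, 95 and 85 in control testes (log2 -1.34 ± 0.37, SE, n = 3 each, edgeR adjusted p = 0.0855). After scaling the groups did not overlap. Next were asRNA:CR43472 opposite CG6006, with 19, 29 and 14 against 29, 25 and 42 counts (log2 -1.10, edgeR adjusted p = 0.526), and asRNA:CR44115 opposite Sec24CD, a coat protein of secretory vesicles, with 111, 132 and 109 against 166, 160 and 137 counts (log2 -0.84, edgeR adjusted p = 0.527). In TMM-scaled CPM no member was higher and 5 were lower with no overlap of the groups, against 5.67% and 6.12% of all tested features. Per 1000000 aligned records 18 (12.2%) were higher and 19 (12.8%) lower with no overlap, against 7.36% and 4.7%. The tested antisense features outside the list stood at 16.2% higher and 8.94% lower, so shares above those of all features are not particular to the members.

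One library decided the testis calls as well. Without mutant testis 3, edgeR called 32 members lower and none higher, against 4.12% and 2.7% of 10619 features, with a median log2 fold change of -0.55. They included the antisense features of RpL3 (-1.01, adjusted p = 0.0100), GluProRS (-1.53, adjusted p = 5.38e-04), Mcm7 (-0.96, adjusted p = 0.0281) and egg, a histone methyltransferase of the piRNA pathway (-1.13, adjusted p = 0.0113). With mutant testis 3 kept, none of the members was called. The fit without it called 37 lower and 2 higher of 255 tested antisense features outside the list. Their median log2 fold change was -0.48, so the shift is not particular to the members. In mutant testis 3 the features other than the members held 30892 counts per 1000000 aligned records, against 44362 and 47511 in the other mutant testes and 30740 to 37422 in control testes.

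Among the protein genes opposite the members, dUTPase, the enzyme that keeps uracil out of DNA, was the only one of 135 tested that edgeR called in testis with all 6 libraries. Counts assigned to it fell from 329, 457 and 379 in control to 19, 26 and 12 in mutant testes (log2 -4.87 ± 0.40, SE, n = 3 each, edgeR adjusted p = 9.10e-11, and at most 0.00584 under the alternatives run). Its antisense feature asRNA:CR45778 (2L:11011162-11012135, minus strand), which contains the whole of dUTPase, had 796, 840 and 561 counts in mutant and 427, 531 and 651 in control testes (log2 0.03 ± 0.33, edgeR adjusted p = 0.994). The antisense share of the pair was 97.5% in mutant and 58.0% in control testes. Which of the paired features holds the counts of dUTPase RNA was not tested. In mutant ovaries dUTPase had 1, 78 and 2 counts and in control ovaries 13, 5 and 3, under the filter on low counts. Across 136 pairs tested in testis the log2 fold changes of the antisense feature and its protein gene had a Spearman correlation of 0.12, and across 103 pairs in ovary 0.42, as a description of values that share libraries.

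The test of whether the genotype difference itself differed between the tissues called none of the 150 members by edgeR or DESeq2, against 0.00969% and 0.0194% of 10321 features called by edgeR for a higher and a lower mutant effect in testis. At an unadjusted p under 0.05 there were 0 and 5 members, against 2.61% and 2.71% of features. The smallest p belonged to the antisense features of CG10863, CG10254 and Cap-H2, with interaction log2 values of -1.62, -1.63 and -1.88 and edgeR adjusted p of 0.805, 0.832 and 0.843. Opposite CG10254, asRNA:CR43903 had 3311, 2924 and 2773 counts in mutant and 980, 1025 and 1496 in control ovaries, and 3616 to 4004 in mutant and 3830 to 4562 in control testes. Without control ovary 3, edgeR called asRNA:CR44035 opposite CG8534 (log2 -8.55, adjusted p = 0.0426), against 0.00901% and 0.018% of 11093 features called for a higher and a lower mutant effect in testis. This member had 129, 989 and 2312 counts in mutant and 1, 7 and 280 in control ovaries and is on the list only through its mutant counts.

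Of the 12 lists of protein genes read beside the members, 7 held a gene opposite a member, and 10 members in all were opposite a listed gene. Of 41 maternal and germ plasm genes only osk, of 33 piRNA pathway genes only egg and of 22 eggshell and yolk genes only Yp1 lay opposite a member. The antisense feature of egg, asRNA:CR44067, had 629 to 784 counts in every ovary library and 92 to 160 in every testis library. Opposite grp, the checkpoint kinase Chk1, asRNA:CR44975 had 1175, 1057 and 898 counts in mutant and 626, 488 and 666 in control ovaries (log2 0.66, edgeR adjusted p = 1.00). Opposite Pdi, which folds secreted proteins, asRNA:CR45396 had 3019 to 3964 counts in every ovary library and 1508 to 2348 in every testis library. None of the members opposite a listed gene passed the edgeR test in either tissue with all libraries. In testis those of osk and Yp1 were under the filter on low counts and were not tested.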

How the data were processed

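The values are raw counts per gene, 1 deposited file for each of 12 libraries. Per the submitters' processing notes, FastQC was run, TopHat2 2.1.1 aligned the reads to BDGP6, HTSeq 0.9.1 counted them and DESeq was used; how the counting treated strand is not stated in what was used here. Per the labels, 200 ng of RNA and the TruSeq RNA Library Prep kit v2 made each library. The 5 summary lines of HTSeq stayed out of library sizes and tests; gene counts plus the records without a feature and the ambiguous ones gave uniquely aligned records. Features were matched by FlyBase ID to the Ensembl annotation, which left 307 without a symbol. Each member was paired with the protein gene of the other strand that shares most exon bases.

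Genotypes were tested separately in each tissue by edgeR 4.0.16 (robust quasi-likelihood F test on TMM-scaled counts, filterByExpr with minimum count 10). Tests were two-sided, and p-values were adjusted over all features tested after Benjamini and Hochberg, with calls under 0.05. All 12 libraries entered the interaction model. DESeq2 1.42.0, limma-voom 3.58.1, other scalings and filters, and leaving out each library were alternatives; scaling by aligned records was added after seeing the data. Fits were tested on simulated counts with large planted changes, the same spread for every feature and no outlying library. These data are more uneven, so that test does not show what the fits could detect here. Named members are the first 20 by count, those at the boundary of the list, those called or of smallest p, those opposite listed genes and those with extreme tissue ratios or pair shares; others were chosen after their values were seen, and 1 of the first 20 is not reported here. The members and lists were chosen with earlier results of these data known. Replicates of a group differed beyond sampling noise, and p-values measure the spread between them.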

Additional observations from a re-analysis of the deposited data

How the results depend on the processing

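The number of members called between mutant and control ovaries was 0 with the filter on low counts and TMM scaling, 1 without the filter and 1 by DESeq2, and ran from 0 to 6 as single libraries were left out. For the opposite protein genes in ovary that range was 0 to 3. In testis the members called ran from 0 to 32 and the opposite protein genes from 1 to 6 as single libraries were left out. For the interaction the members ran from 0 to 1 and the opposite protein genes from 0 to 1, and 1 opposite protein gene, dUTPase, was called with DESeq2 size factors in edgeR, without the filter and by DESeq2. The difference between mutant and control testes in the pair share was -2.08 percentage points summed over pairs and -0.34 as the median over pairs (exact permutation p = 0.8). Beyond the library totals named with each call, the cause of these differences was not tested. The other 123 values of this kind stayed within 1.5 times or within 1 SD. The 37 named members gave 75 fold changes with 1203 values under alternatives: 1056 kept direction and side of the threshold, 132 changed sign, none of them past the threshold, and 15, of 13 fold changes, passed it only in an alternative.

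With the replicate number as a block, 0 members were called in ovary, 0 in testis and 0 for the interaction, and 1 opposite protein gene in testis. All features called in testis numbered 29 higher and 50 lower with the block, and 31 and 61 without. Same-numbered libraries correlated by -0.53, -0.44 and 0.28 in ovary and by -0.19, 0.01 and -0.34 in testis. These values show no pairing by number, and with 3 libraries per group they cannot exclude one. Low counts of the opposite protein genes in ovary, a median of 71.5 summed over 3 control libraries, limit what can be seen of them there.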
